A study of Arabidopsis thaliana with 6 samples.

Results

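The loci AT4G08220, AT3G43510, AT1G80020 and AT1G69950 were the expressed annotated pseudogenes of Arabidopsis seedlings. They were chosen by their mean intensity over the 6 arrays. It was 50 or more for these 4 of 998 annotated pseudogenes with a probe set annotated to a single gene. "Annotated" means that RefSeq's TAIR10.1 gene table gives the locus a biotype of pseudogene or transcribed_pseudogene. Intensity is the linear brightness value of a probe set. AT4G16870 also reached 50 and was left out by the selection rule, which set aside that locus and those of the RPP, NLR and receptor kinase clusters. Because a mean intensity chose the loci, their brightness is a description and was not tested. The mean was taken over both genotypes, so it did not use the difference between them.

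Pseudogenes are gene copies or remnants that have lost the ability to encode the protein of the gene they came from. Most are silent, but some are still transcribed, from a promoter they kept or from one nearby. In plants, transcripts with early stop codons can be removed by nonsense-mediated decay, and many pseudogenes derived from transposons are kept silent by DNA methylation and small RNAs.

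The seedlings were 10 days old, of the Columbia ecotype, and were grown whole in continuous light on agar-gelled MS medium with 2% sucrose after 72 h in the cold. Wild type seedlings were compared with transgenic seedlings that overexpressed the rice cDNA OsTOP6A1, which encodes an A subunit of topoisomerase 6, with 3 arrays per genotype. The labels call the 3 samples of a genotype biological replicates, and name neither the promoter of the transgene nor the number of independent lines, so a difference between the genotypes cannot be told apart from a feature of the line used. The level of the rice transgene itself was not analysed here.

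The median intensity of an array was 37.5 to 39.3, and Pearson correlations across probe sets were 0.991 to 0.995 between arrays of 1 genotype and 0.975 to 0.978 between genotypes. The photosynthesis genes RCA and LHCB4.1, the 2 of 10 seedling markers with a named probe set, summed to between 6619 and 7807 in wild type and between 7375 and 7829 in transgenic seedlings. The 4 root markers, PYK10, NAI2, EXPA7 and EXPA18, summed to between 3790 and 4329 in wild type and between 3845 and 4375 in transgenic seedlings. Leaf and root markers were thus both present, and each sum overlapped between the genotypes. PYK10, with a mean intensity of 3292, made up most of the root sum. NAI2 alone did not overlap. Its intensities were 708.2, 741.1 and 729.6 on the wild type arrays and 745.6, 748.3 and 768.7 on the transgenic arrays. None of the 4 seed storage markers (0) and none of the 3 flower markers (0) had a named probe set. In whole seedlings, fewer cells of a type and less RNA per cell cannot be told apart.

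Most annotated pseudogenes gave almost no signal. Their median mean intensity was 1.8, and 960 of the 998 stayed under 16 on every array. A mean of 16 or more was reached by 20 pseudogenes, or 2.00%, beside 64% of 12331 protein-coding genes. At 50 the shares, before any locus was left out, were 0.501% and 42.2%. Of the 998 loci, 75 carry the biotype transcribed_pseudogene. The 4 loci described here carry the plain biotype pseudogene, so the label of transcription in the annotation and a mean of 50 or more on the array did not coincide for any locus. The brightest transcribed_pseudogene had a mean of 44.2. Intensities of different probe sets depend on their probes as well as on transcript amount, so these shares describe signals on this array.

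**Figure D1:**
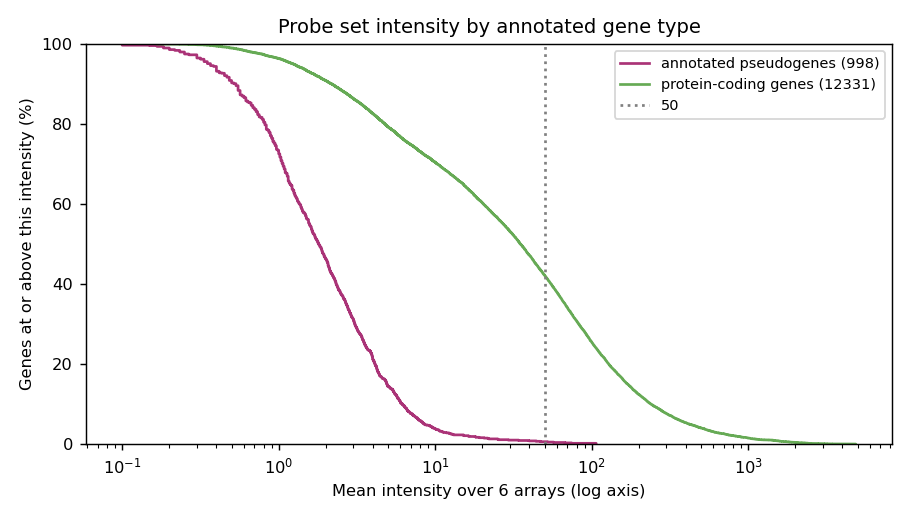
Share of genes (vertical axis, percent) whose probe set had at least the mean intensity on the horizontal axis (log scale, linear intensity units), for 998 annotated pseudogenes and 12331 protein-coding genes, 1 probe set per gene. At the dotted line at 50 the curves stand at 0.501% and 42.2%.

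One of the 4 loci differed between the genotypes. AT3G43510, on chromosome 3, rose about 2-fold in transgenic seedlings, while AT4G08220, AT1G80020 and AT1G69950 had slightly lower means there that did not pass the test. The threshold was an adjusted p of 0.05 in limma on log2(intensity + 16), adjusted over all 22746 tested probe sets. Among all of these 16.5% passed, 8.18% as higher and 8.31% as lower, and among the 10157 probe sets with a mean of 50 or more 23.2% passed, 11% as higher and 12.3% as lower. One rise among 4 loci is near those shares, and nothing is read from the count about pseudogenes as a group. Of the 998 annotated pseudogenes 18 passed as higher and 12 as lower. The number of the 4 loci passing as lower was 0 in limma, and 0 also at an unadjusted p under 0.05. The median log2 fold change of the 4 loci was -0.07, beside -0.02 for all tested probe sets.

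AT3G43510 had intensities of 51.4, 51.2 and 48.3 on the wild type arrays and 91.2, 97.2 and 107.1 on the transgenic arrays. All 3 transgenic arrays lay well above all 3 wild type arrays, and the wild type values were close to each other. Genotypes without overlap were found for 34.9% of all tested probe sets and for 48.3% of those with a mean of 50 or more. The means were 50.3 ± 1.73 and 98.5 ± 8.03 (SD, n = 3 each), a ratio of 1.96. On the log2(intensity + 16) scale the locus rose by 0.79 (SE 0.07, 95% interval 0.61 to 0.96, limma adjusted p = 0.000528). It passed in each of the 13 alternative settings and omissions of single arrays, with log2 fold changes of 0.51 to 0.95 and adjusted p of up to 0.00583 (limma). Its mean was above 50 in both genotypes, so it did not enter the selection through the transgenic arrays alone.

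AT4G08220, on chromosome 4, had intensities of 120.1, 102.8 and 125.5 on the wild type arrays and 108.2, 97.0 and 87.1 on the transgenic arrays. The ranges overlapped, since the lowest wild type array was below the highest transgenic array. The means were 116 ± 11.9 and 97.4 ± 10.6 (SD, n = 3 each). The log2 fold change was -0.22 (SE 0.10, 95% interval -0.45 to 0.01, limma adjusted p = 0.179), so the data allow no change as well as a fall. Among the 4 loci its transgenic arrays spread the most, with an SD of 10.8% of the mean.

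AT1G80020, on chromosome 1, had intensities of 73.9, 68.1 and 65.7 on the wild type arrays and 63.3, 67.7 and 66.7 on the transgenic arrays. The genotypes overlapped and their means of 69.2 ± 4.22 and 65.9 ± 2.31 (SD, n = 3 each) differed by less than the larger SD. The log2 fold change was -0.06, with a 95% interval from -0.21 to 0.10 (limma adjusted p = 0.635). That interval does not hold a change as large as that of AT3G43510 in either direction.

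AT1G69950, also on chromosome 1, had intensities of 60.6, 50.8 and 51.7 on the wild type arrays and 50.9, 49.9 and 48.8 on the transgenic arrays. Wild type replicate 1 was the highest of the 6 arrays, and the other 2 wild type arrays were within 3 units of the transgenic ones. The means were 54.4 ± 5.42 and 49.9 ± 1.05 (SD, n = 3 each), so it was the 1 locus of the 4 with a genotype mean under 50. The log2 fold change was -0.09, with a 95% interval from -0.27 to 0.08 (limma adjusted p = 0.464).

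**Figure D2:**
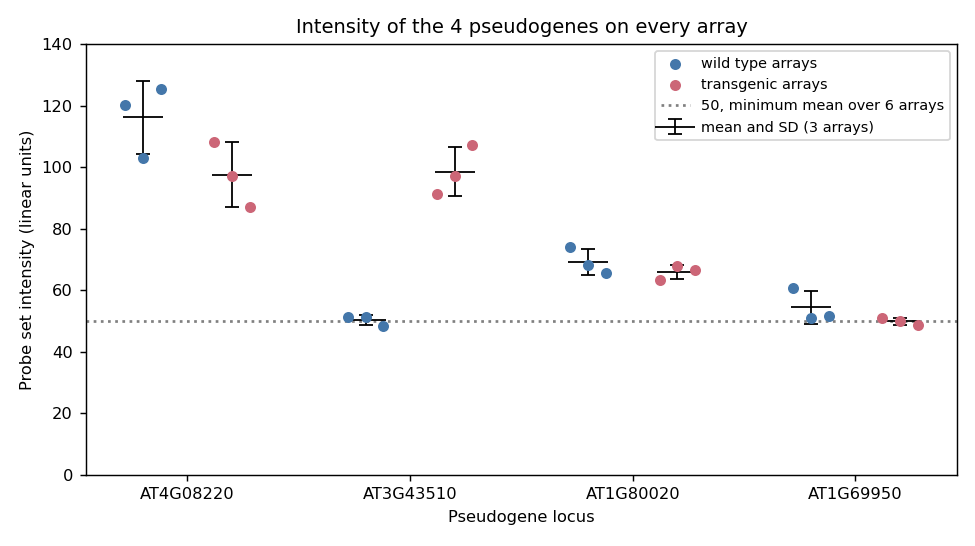
Intensity (linear units) of the 4 pseudogenes on each array, with wild type arrays in blue, transgenic arrays in red, and the mean and SD of 3 arrays in black. The transgenic arrays of AT3G43510 lie between 91.2 and 107.1 and its wild type arrays between 48.3 and 51.4, while the genotypes overlap at the other 3 loci.

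The test of AT3G43510 did not show whether its change differed from that of the other 3 loci, since no contrast between probe sets was made. The loci shared a few features that the selection did not use. Each of the 4 was read by a probe set with the plain suffix _at, without a suffix that marks cross-hybridisation to other genes, although no check of probe sequences was made. The SD between replicate arrays was 3.45% to 10.2% of the mean in wild type and 2.11% to 10.8% in transgenic seedlings. Probe sets with a mean between 50 and 110 had a median of 8.41% and 7.68%.

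The surroundings of the loci differed. In the order of the gene table, the 20 entries on each side of AT3G43510 held 21 pseudogenes, those of AT4G08220 held 14, those of AT1G69950 held 2 and those of AT1G80020 held 0. AT3G43510 and AT4G08220 thus lie in stretches rich in pseudogenes, and the pair on chromosome 1 among genes of other kinds. Of the 40 entries around AT3G43510, 6 had a named probe set. Among these 6, 0 passed in limma and 0 had an unadjusted p under 0.05, with log2 fold changes of -0.18 to 0.16. The next gene on one side, AT3G43520, a protein-coding gene, had intensities of 384.6, 380.4 and 372.5 on the wild type arrays and 426.1, 389.1 and 393.6 on the transgenic arrays. Its genotypes did not overlap but were close, with a log2 fold change of 0.08 (95% interval -0.07 to 0.24, limma adjusted p = 0.451), an interval below that of AT3G43510. The next gene on the other side, LCR30 of the low-molecular-weight cysteine-rich family, had no named probe set. The pseudogenes AT3G43460 and AT3G43530, the 2 measured among the 21, had mean intensities of 4.28 and 0.733, so no second pseudogene signal was seen among the neighbours measured.

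The neighbours of the other 3 loci were named after their values had been seen. AT4G08220 lies between AT4G08210, with means of 11.2 ± 1.77 and 16.4 ± 2.88, and AT4G08230, with means of 23.6 ± 4.77 and 26.1 ± 4.81 (SD, n = 3 each, wild type and transgenic). Neither passed (limma adjusted p = 0.0976 and 0.670), and both had higher transgenic means where AT4G08220 had a lower one. Around this locus 13 entries were measured, of which 0 passed in limma and 1 had an unadjusted p under 0.05. The neighbours of AT1G80020 are FRS8, a gene related to the FAR1 light signalling factor, and AT1G80030. Those of AT1G69950 are PPME1 and PP2A, a protein phosphatase gene. None of these neighbours had a named probe set. Among the measured entries 2 of 14 around AT1G80020 passed as lower and 2 of 10 around AT1G69950 as higher, beside 8.31% and 8.18% of all tested probe sets, and nothing is read from such small counts. All 4 were protein-coding.

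**Figure D3:**
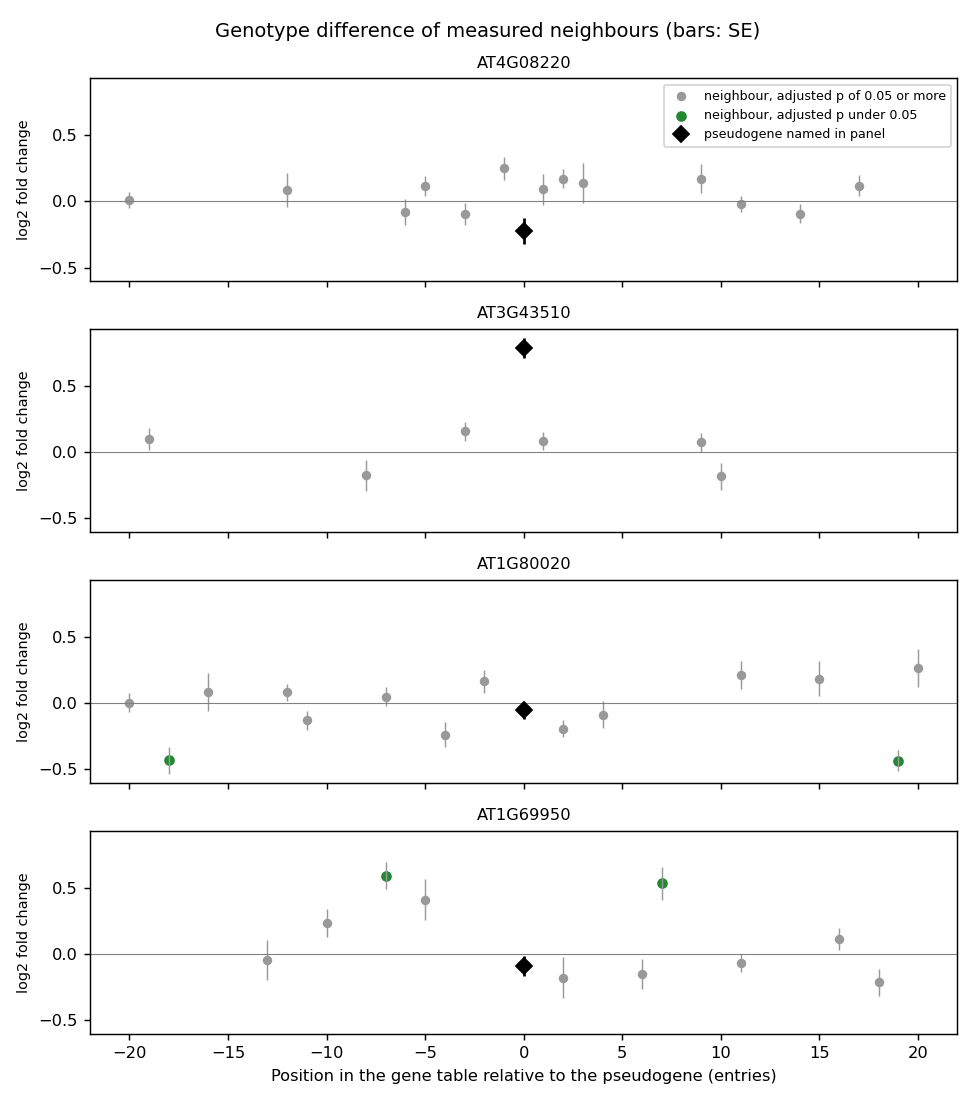
Log2 fold change on log2(intensity + 16), transgenic minus wild type, with SE bars, for each pseudogene (black diamond) and the measured genes among the 20 entries on each side in the gene table (grey, or green at a limma adjusted p under 0.05). AT3G43510 stands at 0.79 while its 6 measured neighbours lie between -0.18 and 0.16.

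Loci with means from 39.7 to 74.4 lay on both sides of the limit of 50. Just inside it lay AT1G69950, AT1G80020 and AT3G43510, with means over 6 arrays of 52.1, 67.6 and 74.4. AT4G16870, left out by the selection rule, also lay there with a mean of 57.1. Just outside lay AT5G20880, AT1G80800 and AT5G50315, with means of 47.1, 44.2 and 39.7. AT5G20880 had intensities of 52.4, 60.5 and 58.1 on the wild type arrays and 39.3, 33.7 and 38.4 on the transgenic arrays. AT1G80800 had 31.3, 28.6 and 37.8 on the wild type arrays and 69.6, 54.2 and 43.9 on the transgenic arrays. AT5G50315 had 38.0, 35.9 and 37.2 on the wild type arrays and 44.4, 42.1 and 40.6 on the transgenic arrays. In none of these 3 did the genotypes overlap, as in 34.9% of all tested probe sets, and AT5G50315 did not pass the test (log2 fold change 0.14, limma adjusted p = 0.185). AT5G20880 was above 50 on each wild type array, and AT1G80800 had a transgenic mean of 55.9, so a limit on the mean of both genotypes kept out loci that reached 50 in 1 of them.

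**Figure D4:**
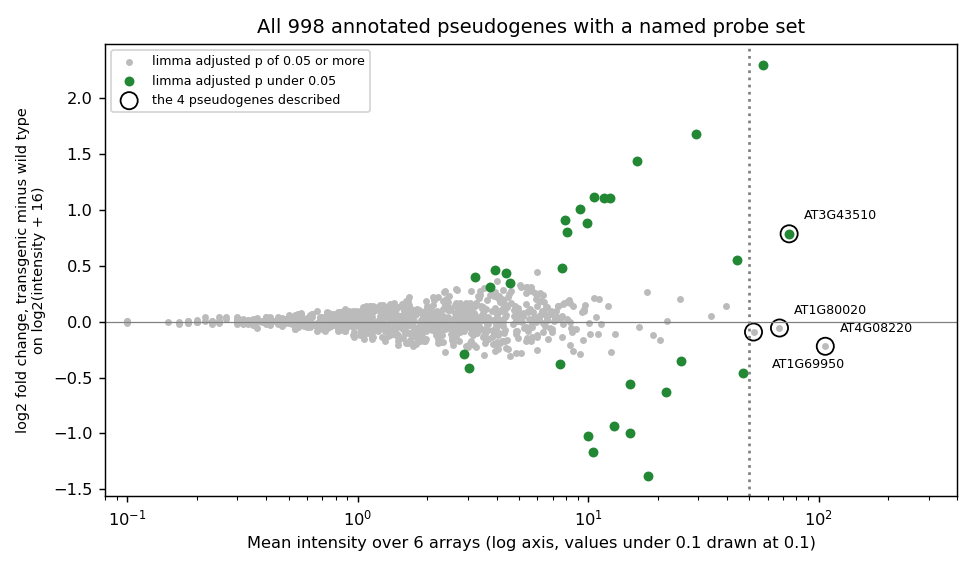
Log2 fold change on log2(intensity + 16), transgenic minus wild type (vertical axis), against the mean intensity over 6 arrays (log axis) for 998 annotated pseudogenes, green at a limma adjusted p under 0.05. The 4 circled loci lie right of the dotted line at 50, where the uncircled point is AT4G16870, left out by the selection rule, and AT3G43510 is the only green point among the circled ones.

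Genes that act on aberrant or silenced transcripts could be followed only in part. Of 22 genes of DNA methylation, histone silencing and small RNA pathways, 0 had a probe set with a name. The platform annotation left 9262 of the 22746 tested probe sets without a single named gene, so this does not show that the array lacks them. Of 8 genes of nonsense-mediated decay, decapping and 5′ to 3′ decay, 2 had a named probe set. Of these 2, 0 passed in limma and 1 had an unadjusted p under 0.05. UPF3 (AT1G33980), a factor of nonsense-mediated decay, had means of 89.7 ± 10.6 and 94.0 ± 1.15 in the wild type and the transgenic genotype (SD, n = 3 each) and a log2 fold change of 0.06, which did not pass (limma adjusted p = 0.686). AT2G39260, which encodes the decay factor UPF2, had intensities of 80.3, 71.5 and 72.7 on the wild type arrays and 63.8, 60.9 and 55.5 on the transgenic arrays. The genotypes did not overlap, but the log2 fold change of -0.26 did not pass (limma adjusted p = 0.0548). It passed in 2 of 13 refits, with a pseudocount of 64 (limma adjusted p = 0.0366) and without the dimmest probe sets (limma adjusted p = 0.0364). In the others it did not pass (limma adjusted p of up to 0.162), and every omission of a single array was among them.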

How the data were processed

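Transcript levels of 6 seedling samples, 3 per genotype, were measured on Affymetrix arrays from total RNA extracted with TRIzol, per the labels' protocols. The deposited values are linear probe set intensities with 1 decimal. Software and scaling were not given in the sources used here. Each array had a mean intensity of 100.01 after 2% was trimmed at each end, so the values were taken as already scaled.

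Of 22810 probe sets, 64 controls were left out. The platform annotation and the RefSeq table of TAIR10.1 named 13484 probe sets with 1 gene, 13436 by gene identifier and 48 by locus tag. No genome build accompanied the arrays, so coordinates were not used beyond gene order. Genotypes were compared on log2(intensity + 16) with limma 3.58.1 in R 4.3.3 (lmFit, eBayes, no trend, no block), with Benjamini-Hochberg adjustment over 22746 probe sets, and the fit was tested on simulated data. No depth applies to arrays, and their number limits the precision. The p-values weigh the difference between the genotypes against the spread between samples of 1 genotype.

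Named were the pseudogenes past the threshold, the brightest, those nearest the limit of 50, the immediate neighbours of those that passed, and list genes. The loci and lists were chosen with earlier results of these data known. Exclusion was by locus range and by gene table text, which left out AT4G16870 among loci of 50 or more. Same-numbered arrays had correlations of deviations from the genotype means of 0.19, 0.06 and 0.11, and differently numbered arrays of -0.16 to 0.08. The same-numbered values were all positive but weak, and the numbers were not taken as pairs in the main fit. Alternatives were other normalizations, pseudocounts, filters, a variance trend, a replicate block, other intensity limits and omission of each array.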

Additional observations from a re-analysis of the deposited data

How the results depend on the processing

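The rise of AT3G43510 and the absence of a call for AT4G08220, AT1G80020 and AT1G69950 held, with no change of sign, in each of the 13 refits run for each locus. With an intensity limit of 25, which took in 11 loci, the number higher in transgenic seedlings was 3, and lower 2. Among these, AT1G20390 (wild type mean 5.60, transgenic mean 53.0) and AT3G07280 (30.2 and 20.3) reached 25 through 1 genotype. With a limit of 100 only AT4G08220 was left, and 0 were higher. These limits change which pseudogenes are counted. Of all tested probe sets 16.5% passed, and nothing is read from such small counts. With 50 required in both genotype means, only AT1G69950, which had no call, was left out. All 4 loci have probe sets without a cross-hybridisation suffix, so a limit to such probe sets kept the same loci. Neither setting could change the counts of 1 higher and 0 lower, and nothing is drawn from them. The count of all probe sets past the threshold was 3751, and 2143 with a pseudocount of 1 (the cause was not tested). With single arrays left out it lay between 2181 and 3433, from fewer samples, and the counts of loci stayed at 1 higher and 0 lower (range 1 to 1 and 0 to 0). It fell below 3751 by more than 1.5 times without replicate 2 or 3 of wild type (2358 and 2323) and without replicate 2 or 3 of the transgenic genotype (2290 and 2181). With the replicate block the whole count was 3592, AT3G43510 kept its call (limma adjusted p = 0.0035) and no other of the 4 loci changed its call. Without single arrays the log2 fold change of UPF3 lay between -0.023 (without wild type replicate 3) and 0.11, and it never passed. Normalization moved the median log2 fold change of all probe sets by less than 0.1. The number of arrays limits what can be seen at AT4G08220, whose interval reaches from -0.45 to 0.01.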

Other observations

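Below the limit of 50 a number of annotated pseudogenes had a signal in 1 genotype and almost none in the other. The loci named here were chosen after their values were seen, and their counts describe this array. AT1G20390 had means of 5.60 ± 0.755 and 53.0 ± 2.2 on the wild type and the transgenic arrays (SD, n = 3 each), a ratio of 9.46. The pseudocount damps folds at low signal, and on log2(intensity + 16) AT1G20390 rose by 1.68 (limma adjusted p = 8.16e-06), and by 0.75 with a pseudocount of 64 and 3.04 with a pseudocount of 1. AT3G15310 had intensities of 0.2, 2.8 and 1.1 on the wild type arrays and 35.4, 27.9 and 29.8 on the transgenic arrays. It rose by 1.44 on the log2(intensity + 16) scale, and by 0.54 and 3.91 with pseudocounts of 64 and 1. In the other direction AT2G26630 had intensities of 27.2, 21.3 and 28.1 on the wild type arrays and 6.7, 4.2 and 3.5 on the transgenic arrays, a ratio of transgenic to wild type means of 0.188. It fell by 1.0 on the log2(intensity + 16) scale, and by 0.38 and 2.22 with pseudocounts of 64 and 1. AT2G23480 had 41.0, 35.6 and 24 against 1.6, 2.6 and 4.5, but its probe set has the suffix _x_at, which marks probes that can bind transcripts of other genes. A split at 16 is looser and was counted at any mean intensity. By it 7 pseudogenes were at 16 or more on every transgenic array and under 16 on every wild type array, and 7 showed the reverse. The first 7 include AT4G16870, whose mean of 57.1 is above the limit of 50. The lower genotype was not always almost without signal, as at AT5G40920, with 15.9, 9.9 and 14.8 on the transgenic arrays. This split at 16 was not counted over all probe sets, of which 34.9% had genotypes without overlap at any level. Nothing is read from the 2 counts about pseudogenes as a group. AT1G20390, AT3G15310, AT2G26630 and AT2G23480 passed in every refit in which they were tested.

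Over all 998 annotated pseudogenes 18 rose and 12 fell, 3.01% in all beside 16.5% of all tested probe sets. The classes by brightness were as follows. Among the 978 with a mean under 16, 2.15% passed, beside 5.81% of all probe sets that dim. Among the 20 with a mean of 16 or more, 9 passed, 5 as higher and 4 as lower, beside 22.3% of all probe sets that bright. Of these 9, 5 had a mean under 16 in 1 genotype and reached 16 through the other, so their genotype means had to differ. That alone did not make a locus pass. AT1G33660, with a wild type mean of 14.9 and a transgenic mean of 21.1, did not (limma adjusted p = 0.0626). Nothing is drawn from the count of such loci.

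AT1G80800, a transcribed_pseudogene just under the limit of 50, had a ratio of transgenic to wild type means of 1.72 and rose by 0.56 on the log2(intensity + 16) scale (limma adjusted p = 0.0312), and by 0.31 with a pseudocount of 64. Its transgenic arrays spread from 43.9 to 69.6, and its call ended with a pseudocount of 1 (limma adjusted p = 0.0807) and in 5 of the 6 omissions of a single array (highest limma adjusted p = 0.101). AT5G20880 fell by 0.46 on the same scale (limma adjusted p = 0.00703) and passed in each of 13 refits (adjusted p of up to 0.0318).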
